A study of Mus musculus with 12 samples.

Results

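The genes described here are the 77 mouse genes whose symbols begin with Mrpl or Mrps followed by a number, the naming pattern of the mitochondrial ribosomal proteins, among 24046 gene symbols counted in splenic B cells. They were taken by name alone, and all 77 passed the filter on low counts, which left 12242 genes to be tested. Of the 77, 50 encode proteins of the large subunit and 26 of the small subunit of the mitochondrial ribosome. Mrps30 and Mrps18a are counted with the large subunit, where their proteins sit in spite of their names. Mrps36 carries the name but is known as a component of the 2-oxoglutarate dehydrogenase complex, and it is described apart where that matters.

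The libraries came from sorted follicular (FO) B cells, the recirculating majority of mature splenic B cells, taken from wild type (WT) mice and of mice labelled Jmjd1c KO. Jmjd1c encodes a jumonji-family protein of the KDM3 histone demethylase group. Some cells were lysed at 0 h and others at 2 h of culture with anti-IgM, which crosslinks the B cell receptor. This gave 4 groups of 3 libraries: WT at 0 h, WT at 2 h, KO at 0 h and KO at 2 h. No group was cultured for 2 h without anti-IgM, so effects of culture and of anti-IgM cannot be told apart. Each genotype was sampled in 3 batches, numbered 1 to 3 in the labels, and the 0 h and 2 h libraries of 1 genotype in 1 batch came from 1 animal, so 6 animals gave the 12 libraries. The labels used here do not describe the knockout allele, any Cre, or the age and sex of the mice.

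The mitochondrial ribosome translates the few respiratory chain proteins that mitochondrial DNA encodes. Its RNAs come from mitochondrial DNA, but all of its proteins are encoded in the nucleus, made on cytosolic ribosomes and imported. Part of them descend from bacterial ribosomal proteins and part have no bacterial counterpart. B cells stimulated through their receptor are known to grow and to raise mitochondrial activity before they divide.

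The 77 genes lie on 17 chromosomes in the GENCODE M21 annotation of GRCm38, and for 68 of them RefSeq (GRCm38.p6) gave a promoter window of 250 bases before to 50 bases after the gene start. A set of 4 short motifs was searched for on both strands in these windows of 300 bases. The E-box CACGTG, the core bound by MYC and related factors, was in 5 windows (7.35% of 68, against 7.24% of 27025 windows of all genes and 10.5% of the 9125 windows of tested genes). The ETS motif CCGGAAGT was in 11 windows (16.2%, against 4.0% and 8.77%). GCATGCGC, the core of the NRF1 motif, was in 8 windows (11.8%, against 2.8% and 5.73%). AAGATGGCG, the core of the YY1 motif, was also in 8 windows (11.8%, against 1.49% and 3.41%). None of the motifs contains another, and a match is a description of the letters only. The following are the 250 bases before the start, 5′ to 3′ on the strand of the gene, of the genes with the largest rise in KO cells (Mrpl12 and Mrpl17), of Mrpl20, which holds an E-box, and of Mrps25, the only gene that fell. Capitals mark a motif match.
Mrpl12 (chr11:120484387-120484636, + strand): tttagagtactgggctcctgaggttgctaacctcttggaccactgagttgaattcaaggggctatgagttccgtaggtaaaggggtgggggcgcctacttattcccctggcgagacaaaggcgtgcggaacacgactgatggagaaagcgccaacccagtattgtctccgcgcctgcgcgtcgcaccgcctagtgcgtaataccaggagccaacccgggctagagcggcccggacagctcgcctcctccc
Mrpl17 (chr7:105811088-105811337, - strand): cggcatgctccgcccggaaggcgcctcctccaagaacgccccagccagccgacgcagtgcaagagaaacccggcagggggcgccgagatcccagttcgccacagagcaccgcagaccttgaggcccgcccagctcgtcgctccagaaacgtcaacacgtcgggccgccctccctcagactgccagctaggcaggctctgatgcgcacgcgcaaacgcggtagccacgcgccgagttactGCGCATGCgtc
Mrpl20 (chr4:155802628-155802877, + strand): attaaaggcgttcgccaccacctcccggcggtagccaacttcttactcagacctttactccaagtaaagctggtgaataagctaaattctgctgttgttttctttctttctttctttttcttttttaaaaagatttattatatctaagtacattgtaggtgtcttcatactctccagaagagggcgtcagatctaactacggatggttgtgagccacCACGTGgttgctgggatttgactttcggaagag
Mrps25 (chr6:92184024-92184273, - strand): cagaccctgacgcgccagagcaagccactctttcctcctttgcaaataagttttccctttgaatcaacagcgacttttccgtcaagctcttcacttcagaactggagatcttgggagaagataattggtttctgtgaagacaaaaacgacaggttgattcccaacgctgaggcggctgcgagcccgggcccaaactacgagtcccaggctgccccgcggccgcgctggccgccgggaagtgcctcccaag
In Mrpl17 the capitals are the NRF1 core read on the opposite strand, from position -11 to -4 counted from the gene start. The capitals in Mrpl20 are the E-box, from -33 to -28. The windows of Mrpl12 and Mrps25 held none of the 4 motifs. The other E-boxes were in Mrpl2, Mrpl36, Mrpl37 and Mrps18c. Members with an E-box had a median log2 difference of 0.43 at 2 h in KO cells (3 of 5 called higher), beside 0.44 for the 63 without (29 called higher). In WT cells the medians were 0.24 (0 of 5 called) and 0.20 (13 of 63 called higher). Of all genes tested, 14.1% were called higher in KO cells and 10.7% in WT cells. With and without the other motifs, KO medians were 0.41 and 0.44 for ETS, 0.53 and 0.43 for NRF1, and 0.51 and 0.43 for YY1. The WT medians were 0.133 and 0.205 for ETS, 0.30 and 0.20 for NRF1, and 0.31 and 0.19 for YY1. No difference by motif was tested.

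Library totals ran from 5666013 to 14153396 counts, and the 77 genes together took 7882 to 37543 of them. The library with the lowest total, KO at 2 h of batch 1, stood apart: Rn45s, a ribosomal RNA precursor, took 52.3% of its counts, against 24.8% in WT at 2 h of batch 1, 12.9% to 15.5% in batch 2 and 0.418% to 1.09% in the remaining 6. In that same library the summed level of 6 genes of dividing cells was 838 CPM (counts scaled to the library size), against 29.2 to 225 in the other 11, and that of 9 myeloid genes was 538 CPM, against 21.7 to 141. Its 4 follicular B cell genes summed to 748 CPM, against 1420 to 1790 elsewhere, while its 6 general B cell genes (2370 CPM) lay within the range of the others (2230 to 5140). Jmjd1c itself was lower in all 6 KO libraries (196 to 236 CPM) than in all 6 WT libraries (270 to 360 CPM), so its transcript was not absent. CPM here are scaled by the trimmed mean of M-values (TMM), and counts, medians and sums that include the KO 2 h library of batch 1 are followed by their values without it where these were computed.

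Levels between genes are compared per kilobase of merged exon. In WT cells at 0 h the 77 genes ran from 2.25 to 54.6 CPM per kilobase, with a median of 13.9. Mrpl24, a large-subunit protein with a bacterial counterpart, stood highest at 54.6 ± 2.62 (SD, n = 3), well clear of the next, but 594 of its 1557 exonic bases overlap exons of Rrnad1, where reads cannot be assigned to 1 gene. Mrpl2 at 31.8 ± 0.487, Mrpl43 at 31.6 ± 1.5 and Mrpl30 at 29.5 ± 2.82 CPM per kilobase did not differ beyond their spread. Of the 1398 exonic bases of Mrpl43, 385 overlap exons of Twnk. At the low end were Mrps33 (2.25 ± 0.744) and Mrpl47 (2.75 ± 0.53), whose spreads overlapped. Only 2 of the 77 genes fell under 20 counts in any library, and the lowest count was 13, for Mrps36. Exons of 16 of the 77 overlapped another gene. The library kit named in the labels does not mark strand, so reads from overlapping exons cannot be assigned to 1 gene.

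Summed over the 77 genes, WT cells at 0 h held 1771, 1797 and 1742 CPM in batches 1 to 3, and KO cells at 0 h held 1823, 1693 and 1835 CPM. After 2 h of anti-IgM the sums were 1903, 2173 and 2161 CPM in WT and 2666, 2254 and 2323 CPM in KO cells. Every 2 h library was above every 0 h library. The ratio of the 2 h to the 0 h mean was 1.17 in WT and 1.35 in KO cells. Between genotypes the sums overlapped at 0 h (ratio of KO to WT means 1.01), and at 2 h all 3 KO sums were above all 3 WT sums (ratio 1.16), the nearest pair being 2254 and 2173 CPM. Without KO at 2 h of batch 1, the ratio of 2 h to 0 h in KO cells was 1.28 and that of KO to WT at 2 h was 1.1. Taken as a share of the raw library total, which includes Rn45s, the ratios of 2 h to 0 h were 1.04 in WT and 1.02 in KO cells. As a share of the total without Rn45s, WT cells held 0.2053%, 0.2106% and 0.2082% at 0 h and 0.2226%, 0.2433% and 0.2454% at 2 h. KO cells held 0.2099%, 0.1942% and 0.2223% at 0 h and 0.2918%, 0.2466% and 0.2665% at 2 h, in batches 1 to 3. In bulk libraries, fewer cells of a type and less RNA per cell cannot be told apart.

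**Figure D1:**
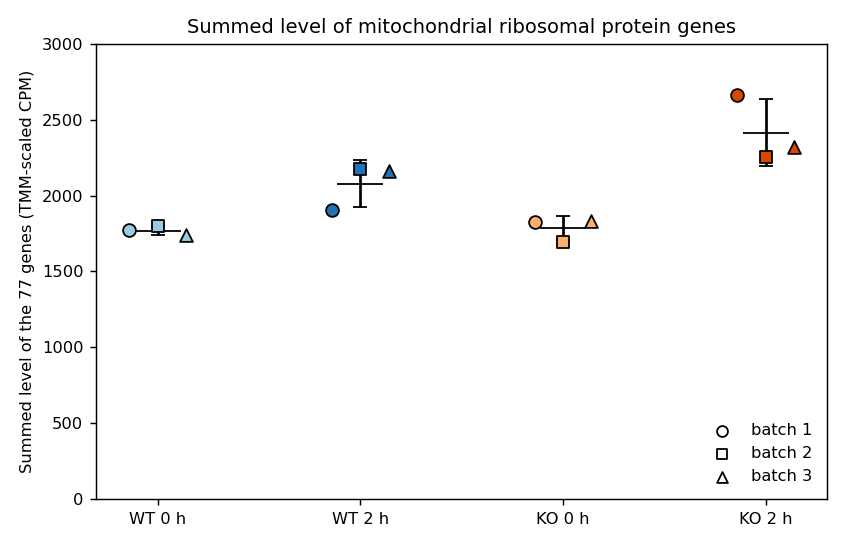
Summed level of the 77 genes in each of the 12 libraries, in TMM-scaled CPM, by genotype and time. Symbols mark the batch, and horizontal and vertical bars are the mean and SD of 3 libraries. All 6 libraries at 2 h lie above all 6 at 0 h, and the highest is KO at 2 h of batch 1 (2666 CPM).

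In WT cells 16 of the 77 genes rose at 2 h and none fell, among them Mrpl12, Mrpl17 and Mrps6 (edgeR quasi-likelihood test, adjusted p under 0.05). Over all 12242 genes, 10.7% were called higher and 9.06% lower. The median log2 difference of the 77 was 0.21, beside 0.009 for all genes, and 61 of the 77 were positive. At an unadjusted p under 0.05, 26 were higher and 1 lower (16.6% and 15.7% of all genes). In 36 of the 77 all 3 WT libraries at 2 h lay above all 3 at 0 h, and in 7 below (21.3% and 22.7% of all genes). Leaving out 1 library moved the count by more than 1.5 times in 4 cases. Among the 0 h libraries, omitting batch 1 gave 8 and omitting batch 3 gave 10. Among those at 2 h, omitting batch 2 gave 7 and omitting batch 3 gave 8. In these 4 fits 12.1%, 12%, 10.1% and 12.5% of all genes were called, higher or lower.

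Mrpl12, a protein of the ribosome's stalk that is also known to bind mitochondrial RNA polymerase, rose most. Its level in WT cells was 27.9, 28.1 and 23.2 CPM at 0 h in batches 1 to 3 and 49.0, 71.6 and 61.8 CPM at 2 h. In KO cells it was 29.1, 27.6 and 24.7 CPM at 0 h and 90.3, 71.4 and 68.4 CPM at 2 h. The 0 h and 2 h libraries did not overlap in either genotype, and the highest value was KO at 2 h of batch 1. The log2 difference was 1.21 ± 0.159 (SE) in WT (adjusted p = 0.000566) and 1.49 ± 0.161 in KO cells (adjusted p = 0.000121). The gene has 5 merged exons at chr11:120484613-120489065.

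Mrpl17, a large-subunit protein with a bacterial counterpart, had WT levels of 22.1, 21.1 and 23.7 CPM at 0 h and 35.8, 49.8 and 42.7 CPM at 2 h. Its KO levels were 24.3, 20.9 and 19.9 CPM at 0 h and 63.6, 60.2 and 50.1 CPM at 2 h. At 2 h all 3 KO libraries were above all 3 WT libraries, by the narrow gap between 50.1 and 49.8 CPM. It rose by a log2 difference of 0.93 ± 0.144 in WT (adjusted p = 0.00123) and of 1.41 ± 0.145 in KO cells (adjusted p = 0.000105). The gene lies at chr7:105803206-105811099 in 2 merged exons with 7605 exonic bases, the longest of the 77.

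Among small-subunit genes Mrps6 and Mrps2, both with bacterial counterparts, rose most in WT cells. Mrps6 went from 5.63, 5.67 and 7.20 CPM at 0 h to 12.5, 15.2 and 10.2 CPM at 2 h in WT cells. In KO cells its levels were 7.49, 5.32 and 6.93 CPM and then 14.5, 16.7 and 12.1 CPM. Neither genotype showed any overlap between times, and the log2 differences were 1.03 ± 0.224 in WT (adjusted p = 0.00802) and 1.13 ± 0.225 in KO cells (adjusted p = 0.0038). Exons of Mrps6 share 464 bases with neighbours on the same strand, Slc5a3 among them, a transporter gene whose own log2 difference was 0.60 in WT (adjusted p = 0.108) and 0.34 in KO cells (adjusted p = 0.312). Mrps2 had 24.8, 26.8 and 23.5 CPM in WT cells at 0 h and 34.2, 47.7 and 47.2 CPM at 2 h, with batch 1 the lowest of the 2 h libraries. Its log2 difference was 0.78 ± 0.18 in WT (adjusted p = 0.0102) and 0.94 ± 0.181 in KO cells (adjusted p = 0.00309).

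The other genes that rose in WT cells were Mrpl54 (0.77), Mrpl15 (0.76), Mrps18b (0.65), Mrps27 (0.61), Mrpl19 (0.58), Mrpl50 (0.57), Mrpl16 (0.53), Mrpl39 (0.52), Mrps10 (0.49), Mrps18a (0.47), Mrpl3 (0.43) and Mrps17 (0.41), given as log2 differences. With the animal as a replicate block, the calls of Mrps27, Mrps10 and Mrps17 ended (adjusted p 0.0638, 0.0623 and 0.0818). Mrpl19 shares 1962 exonic bases with Gcfc2, whose own log2 difference was -0.11 in WT (adjusted p = 0.635) and -0.19 in KO cells (adjusted p = 0.293). Mrpl54 and Mrpl50 are large-subunit proteins without a bacterial counterpart, while Mrpl15, Mrpl16, Mrpl19 and Mrpl3 have one. Mrpl50 showed little spread in WT cells at 0 h, with 24.99, 24.95 and 25.55 CPM, and had 32.7, 40.4 and 39.1 CPM at 2 h. The threshold cut through a continuous run of values. Just inside were Mrpl3, Mrps10 and Mrps17 (adjusted p 0.0328, 0.0388 and 0.0453), and just outside were Mrps5, Mrpl38 and Mrps30 (adjusted p 0.0531, 0.0735 and 0.0788), with log2 differences of 0.58, 0.42 and 0.34.

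By subunit, 10 of 50 large-subunit genes and 6 of 26 small-subunit genes rose in WT cells, with medians of 0.20 and 0.28. The share of all genes called higher was 10.7% in WT cells. Of the 48 genes with a bacterial counterpart 12 rose (median 0.26), and of the 28 without one 4 rose (median 0.19). No difference between these groups was tested. Mrps36 had a log2 difference of 0.24 ± 0.31 in WT (adjusted p = 0.667) and 0.35 ± 0.32 in KO cells (adjusted p = 0.426).

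In KO cells 37 of the 77 genes rose at 2 h, including all 16 that rose in WT cells, and 1, Mrps25, fell (edgeR). Over all genes 14.1% were called higher and 13.0% lower. The median log2 difference of the 77 was 0.44, beside 0.04 for all genes, and 71 were positive. KO libraries at 2 h lay wholly above those at 0 h for 50 of the 77 and wholly below for 1 (17.9% and 19.6% of all genes). Without the KO 2 h library of batch 1, 33 genes were higher and 1 lower, while the median was 0.38. Of these, 33 were among the 38 called with it. In that fit 2135 of 12516 genes over all were higher and 1714 lower. The count of members higher was 19, 16 and 23 without KO 0 h replicates 1, 2 and 3 in turn. Of all genes, 18.2%, 19% and 19.4% were then called, higher or lower. Leaving out KO 0 h replicate 1, 2 or 3, or KO 2 h replicate 2, ended the call of Mrps25.

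**Figure D2:**
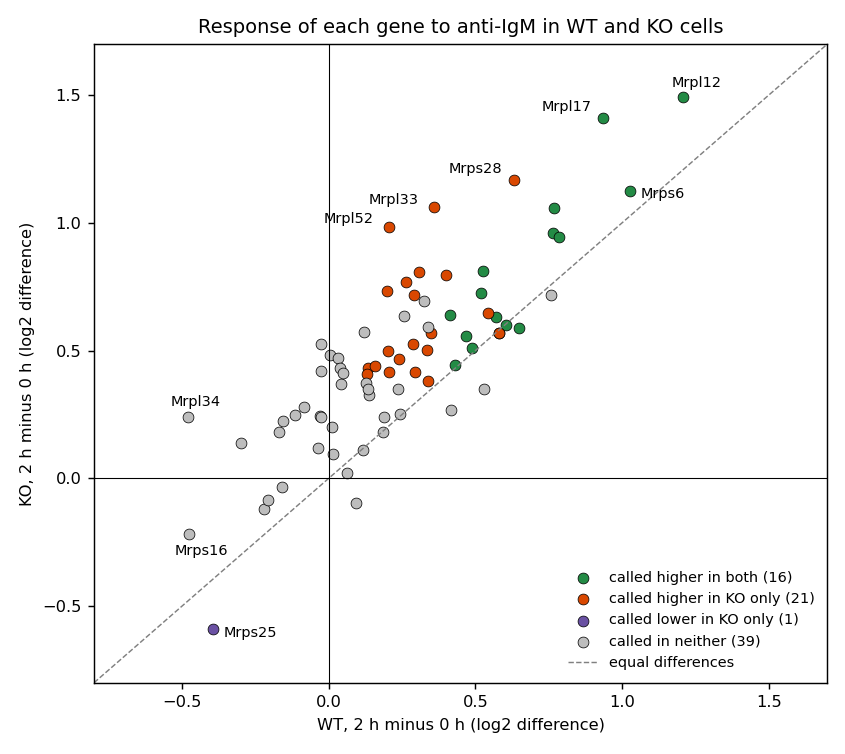
Log2 difference between 2 h and 0 h for each of the 77 genes in WT (x axis) and KO cells (y axis), coloured by which comparison called the gene. Of the points, 65 lie above the dashed line of equal differences, with Mrpl12 and Mrpl17 at the upper right and Mrps25 at the lower left.

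The 21 genes called in KO cells alone included Mrps28 (1.17 ± 0.294, adjusted p = 0.0127), Mrpl33 (1.06 ± 0.344, adjusted p = 0.0397), Mrpl52 (0.98 ± 0.31, adjusted p = 0.0355), Mrps14 (0.81 ± 0.143, adjusted p = 0.00197) and Mrpl36 (0.79 ± 0.157, adjusted p = 0.00356), as log2 differences. Being called in 1 genotype and not in the other does not show that the responses differed, and the test of that difference is given below. Mrps14, a small-subunit protein with a bacterial counterpart, had 21.3, 17.4 and 19.4 CPM in KO cells at 0 h and 38.9, 27.3 and 36 CPM at 2 h. In WT cells it had 18.9, 19.8 and 21.5 CPM and then 24.0, 24.6 and 25.9 CPM, so times did not overlap in either genotype. Its call in KO cells held in all 18 alternatives run.

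The calls of Mrpl33 and Mrpl52, large-subunit genes with 478 and 491 exonic bases, ended without KO at 2 h of batch 1. They also ended when KO 0 h replicate 1, 2 or 3 was left out, and when only the groups compared were fitted. Mrpl33 had 9.99, 10.1 and 11.3 CPM in KO cells at 0 h and 39.2, 12.2 and 15.9 CPM at 2 h. Mrpl52 had 13.6, 8.82 and 12.6 CPM at 0 h and 38.2, 15.0 and 18.1 CPM at 2 h. In both, KO at 2 h of batch 1 was more than 1.5 times each of the other KO libraries at 2 h. Without it the log2 differences were 0.43 (adjusted p = 0.0792) for Mrpl33 and 0.50 (adjusted p = 0.0864) for Mrpl52. Mrps28 had 7.64, 4.86 and 6.33 CPM at 0 h and 21.7, 10.3 and 11.3 CPM at 2 h in KO cells, again highest in batch 1, and without that library its log2 difference was 0.77 (adjusted p = 0.0229). Under the animal block, the KO calls of Mrpl33, Mrps12, Mrpl21 and Mrps10 ended (adjusted p 0.0709, 0.0506, 0.0825 and 0.0506). Mrps12, Mrps30 and Mrps9 were near the threshold in KO cells. Without KO at 2 h of batch 1 their log2 differences were 0.52, 0.38 and 0.27 (adjusted p 0.0792, 0.0535 and 0.0943), and their calls also ended in 10 other alternatives for Mrps12, 9 others for Mrps30 and 10 others for Mrps9.

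Mrps25, a small-subunit protein without a bacterial counterpart, went the other way. It had 119, 108 and 109 CPM in KO cells at 0 h and 51.1, 78.2 and 91.3 CPM at 2 h. In WT cells it had 122, 105 and 114 CPM and then 91.8, 76.2 and 91.2 CPM. No 2 h library reached a 0 h library in either genotype. The log2 difference was -0.59 ± 0.174 in KO (adjusted p = 0.0266) and -0.40 ± 0.173 in WT cells (adjusted p = 0.138). Of its 6073 exonic bases at chr6:92169525-92184033, 3533 overlap exons of Nr2c2, an orphan nuclear receptor gene on the opposite strand. Nr2c2 had log2 differences of -0.64 (adjusted p = 0.0216) in KO and -0.47 (adjusted p = 0.0903) in WT cells, and how far shared reads enter both values was not tested. Nr2c2, Slc5a3, Gcfc2, Mtbp, Rrnad1 and Oaz3 were the overlapping genes looked up, after the values of their neighbours were seen.

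Other genes with low values did not pass the test in either genotype. Mrps16 had a log2 difference of -0.48 ± 0.222 in WT (adjusted p = 0.162) and -0.22 ± 0.223 in KO cells. Mrpl34 had -0.48 ± 0.294 in WT (adjusted p = 0.301) and 0.24 ± 0.295 in KO cells, where its 2 h levels were 26.4, 11.5 and 12.4 CPM, highest in batch 1. Mrpl49 had -0.12 in KO cells (adjusted p = 0.541).

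**Figure D3:**
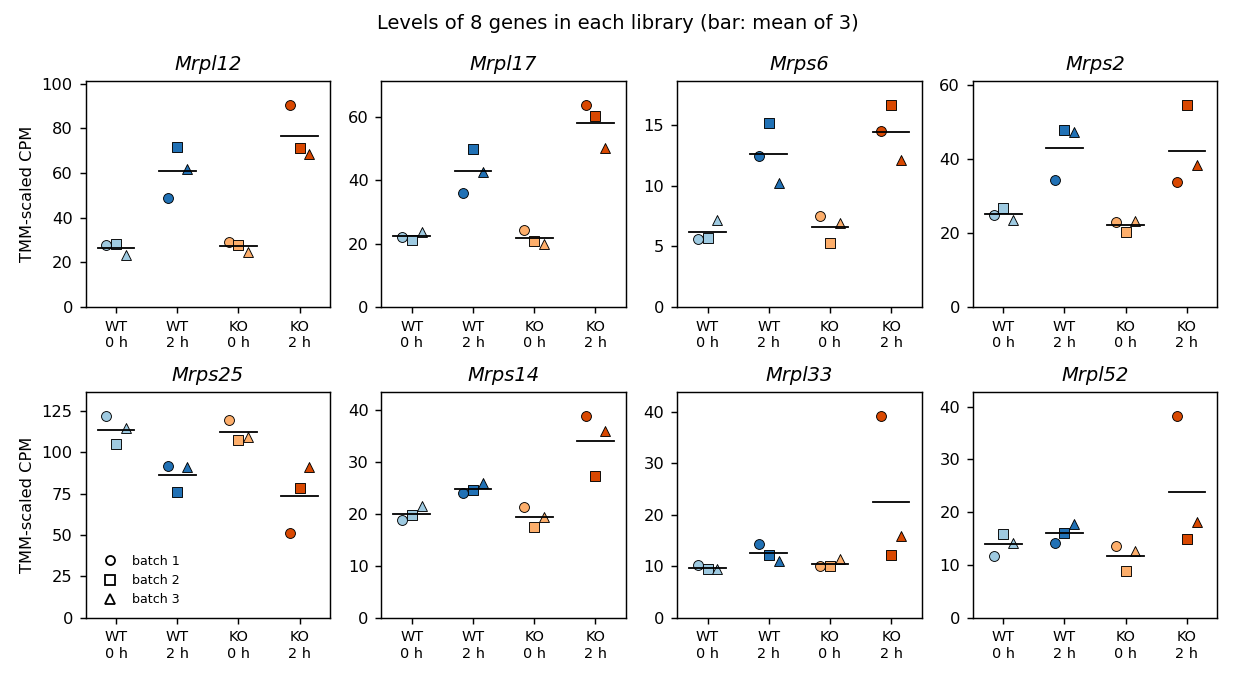
TMM-scaled CPM of 8 of the genes in each library, with symbols for the batch and a bar for the mean of 3. Mrpl12, Mrpl17, Mrps6 and Mrps2 are higher and Mrps25 lower at 2 h in both genotypes, and the single high KO point of Mrpl33 (39.2 CPM) and Mrpl52 (38.2 CPM) is the library of batch 1.

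In KO cells 24 of 50 large-subunit and 13 of 26 small-subunit genes rose, with medians of 0.46 and 0.47. The share of all genes called higher was 14.1% in KO cells. Among genes with a bacterial counterpart 27 of 48 rose (median 0.48), beside 10 of 28 without one (median 0.36). The lowest value among the 31 large-subunit genes with a bacterial counterpart was 0.02, so none of them was negative in KO cells. Across the 77 genes the WT and KO log2 differences correlated with Pearson r = 0.81 and Spearman rho = 0.79, a description over genes that share libraries and batches. Responses showed little relation to the WT level at 0 h (Spearman rho -0.11 for the WT response, 77 genes).

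Before stimulation no difference between KO and WT cells was detected in these genes. None of the 77 was called, none had an unadjusted p under 0.05, and the median log2 difference of KO minus WT was 0.02. Over all genes edgeR also called 0% (91 genes at an unadjusted p under 0.05), and DESeq2 called none of the 77. Estimates ran from -0.24 to 0.39 with a median SE of 0.157, so all 77 lay within 0.5 of zero. By batch the medians were 0.05, -0.06 and 0.06, with 48, 22 and 50 of the 77 higher in KO cells. Libraries of the genotypes did not overlap for 3 genes that were higher and 4 that were lower in KO (2.95% and 2.90% of all genes). The smallest p belonged to Mrpl27, with a log2 difference of 0.32 ± 0.203 (unadjusted p = 0.141).

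At 2 h the estimates leaned to the KO side without any gene passing the test. None of the 77 was called by edgeR or DESeq2 (0% of all genes in edgeR), 15 had an unadjusted p under 0.05, all higher in KO (3.71% of all genes were higher and 1.52% lower at that level), and the lowest adjusted p was 0.887. The median of KO minus WT was 0.26, beside 0.007 for all genes, and 70 of 77 were positive. For 20 genes all KO libraries were above all WT libraries and for 0 below (4.62% and 3.59% of all genes). The smallest p-values belonged to Mrpl27 (0.69 ± 0.208, unadjusted p = 0.00657), Mrps14 (0.45 ± 0.143, unadjusted p = 0.0089), Mrpl1 (0.47 ± 0.152, unadjusted p = 0.00977) and Mrpl55 (0.55 ± 0.18, unadjusted p = 0.0102). Mrpl55, a large-subunit gene, had 8.52, 10.99 and 12.1 CPM in WT and 17.9, 14.7 and 14.04 CPM in KO cells at 2 h, and the groups did not overlap. Mrpl27, whose exons share 75 bases with Eme1, had 8.25, 6.31 and 7.37 CPM in WT and 14.9, 10.5 and 10.4 CPM in KO cells at 2 h. It was also higher in all 3 KO libraries at 0 h (9.54, 9.73 and 9.86 CPM, against 9.05, 7.11 and 7.13 CPM in WT).

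This lean was unequal between batches. Within batch 1 the median of KO minus WT at 2 h was 0.52 and 69 of 77 genes were higher in KO, while the medians were 0.07 in batch 2 (44 of 77) and 0.14 in batch 3 (59 of 77). Without KO 2 h replicate 1 the median over the edgeR fit was 0.14, with 10 genes at an unadjusted p under 0.05. With both 2 h libraries of batch 1 left out the median was 0.09, with 6 genes at that level. In the KO 2 h group, the batch 1 library was the highest of 3 for 48 of the 77 genes, and for 13 it was more than 1.5 times both others. The WT library at 2 h of batch 1 was the lowest of its group for 51 of 77. These are the libraries in which Rn45s took 52.3% and 24.8% of counts and the summed genes of dividing cells reached 838 and 225 CPM, and the part of either in the difference was not tested.

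**Figure D4:**
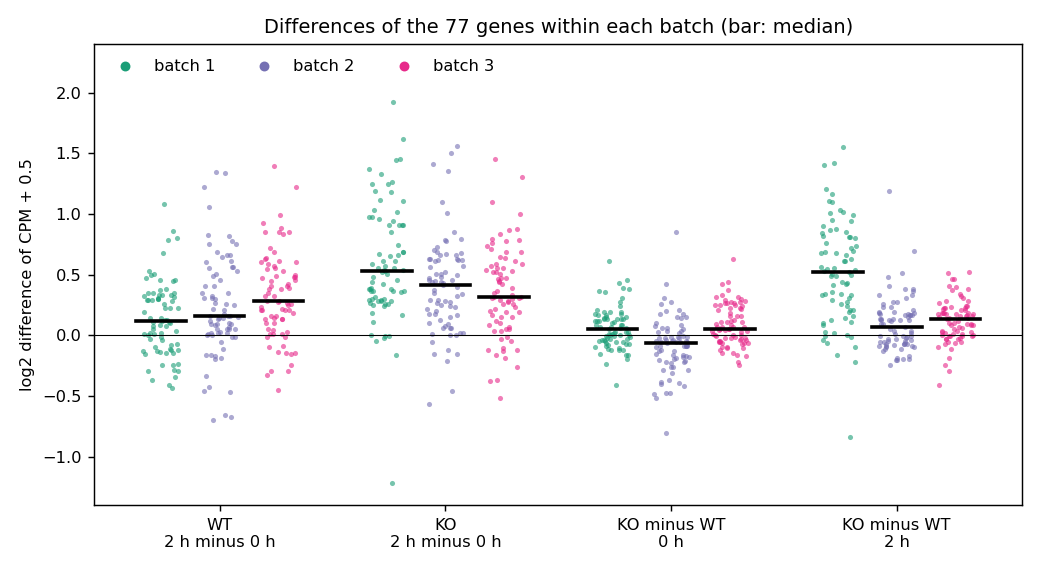
Differences of the 77 genes within each batch, as log2 of CPM + 0.5, for the 4 comparisons. Each point is a gene and each bar the median over genes. The KO minus WT medians at 2 h are 0.52, 0.07 and 0.14 in batches 1, 2 and 3.

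Genes with less merged exon length had the larger batch 1 difference. Split at the median merged exon length of 1363 bases, the 39 shorter genes had a median KO minus WT of 0.61 at 2 h in batch 1 and the 38 longer ones 0.32. In batch 2 the medians were 0.10 and 0.03, and in batch 3 they were 0.17 and 0.08. Spearman correlation of the difference with length over the 77 genes was -0.35, -0.01 and -0.19 in batches 1, 2 and 3. At 0 h in batch 1 it was -0.09. The WT response of batch 1 gave -0.08 and the KO response -0.37. The genes share libraries, so these correlations are descriptions, and the split was made after the values were seen.

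**Figure D5:**
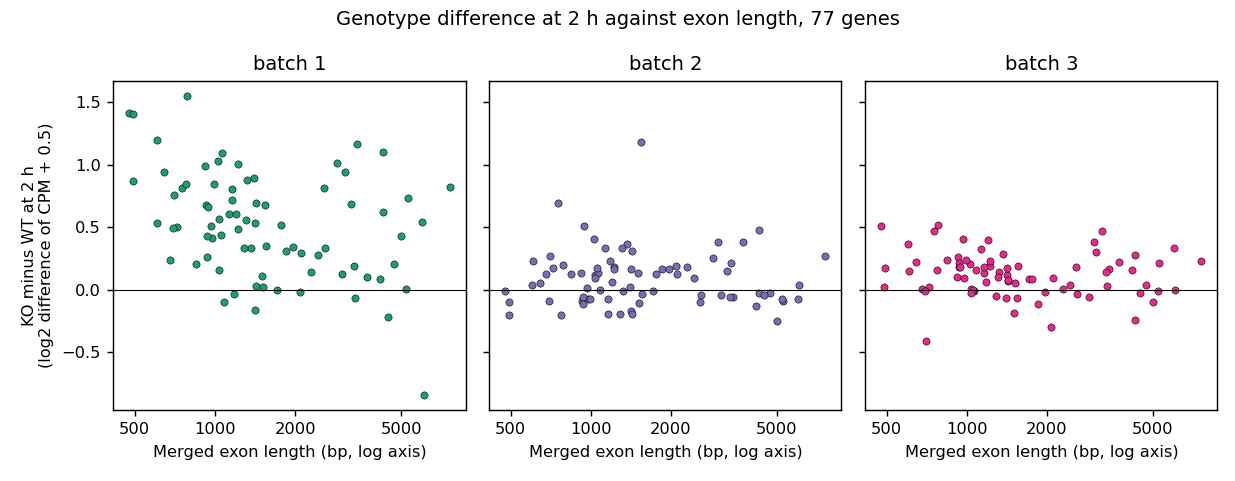
KO minus WT at 2 h for each of the 77 genes, as log2 of CPM + 0.5, against merged exon length on a log axis, 1 panel per batch. For the 39 shorter genes the medians are 0.61, 0.10 and 0.17 in batches 1, 2 and 3. For the 38 longer ones they are 0.32, 0.03 and 0.08.

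The test of whether the 2 h responses differed between genotypes called none of the 77 (0% of all genes), and 2, Mrps14 and Mrpl17, had an unadjusted p under 0.05 (0.03 and 0.0375). Their responses were larger in KO cells by 0.50 ± 0.202 and 0.47 ± 0.202 on the log2 scale. In Mrps14 the KO response was 0.86, 0.63 and 0.88 in batches 1 to 3 and the WT response 0.34, 0.31 and 0.26. In Mrpl17 the KO response was 1.37, 1.504 and 1.31 and the WT response 0.68, 1.22 and 0.83. Both genes thus had the larger KO response in each batch, as did other members, Mrpl1 and Mrpl12 among them. They were picked by p from these same libraries, so the agreement between batches is no separate support. Over the 77 genes the median difference was 0.23 and 65 were positive, beside 50.9% of all genes. Without KO 2 h replicate 1 the median was 0.14, and 0 of the 77 had an unadjusted p under 0.05. With both 2 h libraries of batch 1 left out the median was 0.10, again with 0 genes at that level. The KO response itself was positive in every batch, with medians of 0.53, 0.41 and 0.32, and the WT response had medians of 0.12, 0.16 and 0.28.

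Genes that work with the mitochondrial ribosome were read from lists of their own. Over all genes, 10.7% were called higher and 9.06% lower in WT cells, and 14.1% and 13.0% in KO cells. Without KO at 2 h of batch 1, 2135 of 12516 genes were higher and 1714 lower in KO cells. Another 6 ribosome proteins do not carry the Mrp name in these files: Dap3, Ptcd3, Chchd1, Gadd45gip1, Aurkaip1 and Ict1, the last a peptidyl-tRNA hydrolase built into the large subunit. None was called in WT cells, and 3 had an unadjusted p under 0.05 in edgeR. At that level 16.6% of all genes were higher and 15.7% lower in WT cells. Chchd1 (0.66 ± 0.134, adjusted p = 0.00432) and Gadd45gip1 (0.52 ± 0.141, adjusted p = 0.0174) rose in KO cells. Ptcd3 passed too without KO at 2 h of batch 1 (0.71, adjusted p = 0.00336). Dap3, a GTP-binding protein of the small subunit, had log2 differences of -0.27 (adjusted p = 0.11) in WT and -0.12 (adjusted p = 0.423) in KO cells.

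Of 26 assembly factors, 4 rose and 1 fell in WT cells, and 6 rose in KO cells (10.7%, 9.06% and 14.1% of all genes). Noa1, a GTPase needed to build the small subunit, went from 17.4, 19.1 and 15.98 CPM to 36.2, 56.3 and 46.6 CPM in WT cells. Its log2 differences were 1.41 ± 0.161 in WT (adjusted p = 0.000269) and 1.39 ± 0.162 in KO cells (adjusted p = 0.000194). Rnmtl1, a methyltransferase of the large ribosomal RNA, rose by 1.03 in WT and 1.11 in KO cells, and Fastkd2, an RNA-binding protein, by 0.73 and 0.74 on the log2 scale. Wbscr16 rose by 0.65 in WT (adjusted p = 0.033) and 0.92 in KO cells (adjusted p = 0.00476). The gene that fell in WT cells was Ftsj2, a methyltransferase, with a log2 difference of -1.22 (adjusted p = 0.0219), beside -0.95 in KO cells (adjusted p = 0.0503). Without KO at 2 h of batch 1, 8 assembly factors rose and 1, Ftsj2, fell in KO cells (-1.15, adjusted p = 0.0235). Of 15 translation factors, 4 rose in WT cells, and 4 rose and 1, Gfm2, fell in KO cells (-0.54, adjusted p = 0.0256). Tufm, the elongation factor that brings aminoacyl-tRNA to the ribosome, rose by 0.48 in WT (adjusted p = 0.00789) and 0.61 in KO cells (adjusted p = 0.00181). Its exchange factor Tsfm rose by 0.72 and 1.05, and the recycling factor Mrrf by 0.80 and 0.86. Without KO at 2 h of batch 1, 4 translation factors rose and 1 fell in KO cells, and the KO rise of Tsfm was 0.77.

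Of 17 mitochondrial tRNA synthetases, 2 rose in WT cells, and 3 rose and 1, Cars2, fell in KO cells (-0.56, adjusted p = 0.0499). Over all genes 10.7% were called higher in WT cells, and 14.1% higher and 13.0% lower in KO cells. Yars2 rose by 0.89 in WT and 0.97 in KO cells. Lars2, also on this list, had 21660, 11970 and 292.8 CPM in WT cells at 2 h in batches 1 to 3. In KO cells at 2 h it had 81760, 13730 and 335.5 CPM. Why its level differed so widely between batches was not tested. With KO at 2 h of batch 1 left out, 5 synthetase genes rose and 1 fell in KO cells, beside 2135 higher and 1714 lower of 12516 genes. Ftsj2, Gfm2, Cars2 and Lars2 are named after their values were seen. The list of 11 genes for mitochondrial transcription and genome maintenance held 2 that rose and 1 that fell in each genotype. Peo1, the replicative helicase, rose by 1.16 in WT and 1.21 in KO cells, and Top1mt, a topoisomerase, by 1.48 and 1.57. Tfam, which packages mitochondrial DNA and starts its transcription, had 102, 101 and 98.1 CPM in WT cells at 0 h and 70.3, 62.4 and 73.6 CPM at 2 h. It fell by 0.54 in WT (adjusted p = 0.00277) and by 0.28 in KO cells (adjusted p = 0.0497) on the log2 scale. Without KO at 2 h of batch 1, 3 genes of this list rose and 2, Tfam and Polg2, fell in KO cells. None of the 13 mitochondrially encoded proteins had a matching symbol in the tables, so the products of these ribosomes were not analysed here.

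Of the import genes, 14 of 26 rose in WT and 20 of 26 in KO cells, with medians of 0.51 and 0.78. For this and the next 2 lists, the share of all genes called higher was 10.7% in WT and 14.1% in KO cells. Timm9 and Timm10, small chaperones of the intermembrane space, rose by 1.67 and 1.27 in WT and by 1.60 and 1.74 in KO cells. Hspd1, the matrix chaperonin, rose by 1.33 in WT and 1.39 in KO cells. Among 79 cytosolic ribosomal protein genes tested, 1 rose in WT (median 0.01) and 10 in KO cells (median 0.43). Of 80 nuclear-encoded respiratory chain genes, 5 rose in WT (median 0.08) and 26 in KO cells (median 0.43). At 2 h the KO minus WT medians were 0.45 for the cytosolic ribosomal, 0.37 for the respiratory chain, 0.18 for the import and 0.03 for the assembly genes, none with a gene called. Without KO at 2 h of batch 1 these medians were 0.20, 0.17, 0.19 and 0.06, again with no gene called. The counts that rose in KO cells were then 7 cytosolic ribosomal (median 0.17), 21 respiratory chain (median 0.23) and 21 import genes (median 0.68). Over all genes, 2135 of 12516 were called higher in that fit. Leaving that library out of these lists and of the summed levels was chosen after seeing the data.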

How the data were processed

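The files are gene counts deposited by the authors, 1 table per library, from poly(A) RNA per the labels' protocols. Reads were aligned to mm10 with STAR per the submitters' processing notes, while the counting tool, annotation and strand setting are not stated there. Counts were tested as deposited with edgeR 4.0.16 (limma 3.58.1, R 4.3.3): TMM scaling, filterByExpr on the 4 groups, a quasi-likelihood fit of 4 group means to all 12 libraries, and Benjamini-Hochberg adjustment over all 12242 genes, called at adjusted p under 0.05. Standard errors are the log2 difference divided by the square root of F. On simulated data the test returned the differences put in and called no unchanged gene, but it missed part of the changed genes, large changes included. The alternatives were other scaling, other filters, batch or animal blocks, DESeq2 1.42.0 and leaving out libraries. Batches are labelled and both times of an animal share its number, so the numbers pair the samples. Correlations of deviations ran from -0.4 to 0.86 over 18 same-numbered pairs and from -0.75 to 0.6 over 36 other pairs. Depth was 5666013 to 14153396 counts per library, so the limit that 3 counts allow was 0.183 to 1.01 CPM, covering counting error only. Differences within batches use log2 of CPM + 0.5. Replicates differed beyond counting noise in every group.

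Members and gene lists were chosen with earlier results of these data known. Genes named in the text were up to 10 called members per direction and the 3 lowest per time comparison, the 4 with the smallest p per genotype comparison, the highest and lowest by level, those nearest the threshold, and up to 4 per companion list by smallest p. Members described for their dependence on 1 library, their structural group or their promoter were named after their values were seen. Gene positions and exon lengths are from GENCODE M21, and promoter windows from RefSeq. Windows were found for all but Mrpl13, Mrpl15, Mrpl19, Mrpl38, Mrpl4, Mrpl54, Mrps28, Mrps34 and Mrps35.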

Additional observations from a re-analysis of the deposited data

Results flagged for a closer look

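Mrpl2 and Mrpl40, both large-subunit genes, stood out because KO minus WT was negative in all 3 batches at 0 h and positive in all 3 at 2 h. For Mrpl2 the differences were -0.06, -0.09 and -0.06 at 0 h and 0.57, 0.12 and 0.01 at 2 h, and for Mrpl40 they were -0.04, -0.09 and -0.01 at 0 h and 0.56, 0.34 and 0.11 at 2 h, as log2 of CPM + 0.5 in batches 1 to 3. They were picked by direction, which is no test. In the edgeR test of the difference between responses, the estimates were 0.298 ± 0.162 for Mrpl2 and 0.362 ± 0.242 for Mrpl40, and neither was called (adjusted p = 1).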

How the results depend on the processing

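The WT count of 16 genes higher was 25 without the 2 h libraries of batch 1 and with a batch block. That pairing setting also gave 4 lower, and it called 41.7% of all genes, higher or lower. The WT count lower was 2 when only the groups compared were fitted and 1 without the 2 h libraries of batch 1. Of all genes, 28.6% and 28.9% were called in these settings, higher or lower. The KO count of 37 higher was 21 with no filter on low counts, 14 with only the groups compared and 23 without any library of batch 1. Of all genes, 15%, 14.7% and 22.1% were called in these settings, higher or lower. The KO count of 1 lower was 0 with only the groups compared and 0 without any library of batch 1. It was 3 without the 2 h libraries of batch 1 and with a batch block, where 44.2% of all genes were called. The settings without any library of batch 1, and with the block and without its 2 h libraries, were chosen after seeing the data. With the batch block alone, 17 WT and 38 KO genes were higher (24.9% and 32% of all genes called, higher or lower). With the animal block 14 and 36 were higher (19.6% and 26.6% of all genes called). The block changed no count by over 1.5 times. With 1 library left out, the counts higher ran from 7 to 18 in WT and from 16 to 33 in KO cells. The KO count lower was then 0 or 1. The share of all genes called, higher or lower, ran from 10.1% to 17.6% in WT and from 18.2% to 30.8% in KO cells. The counts between genotypes and for the difference of responses were 0 in every setting. The ratio of summed levels, 2 h over 0 h, was 1.04 in WT and 1.02 in KO cells as a share of the raw total, which includes Rn45s. As a share of the total without Rn45s, each 2 h library was above the 0 h library of its animal. Medians ran from 0.164 to 0.249 in WT and from 0.342 to 0.489 in KO cells. With only the groups compared, the spread comes from 6 libraries. No called difference changed sign, and the median of KO minus WT at 0 h was just below 0 without any library of batch 1. The cause of these moves was not tested. At the lowest depth 3 counts correspond to 1.01 CPM, and 2 of the 77 genes had fewer than 20 counts in a library.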
